A study of Homo sapiens with 8 samples.

Results

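Of the 214 H/ACA snoRNA genes annotated in GENCODE 44, 23 lie wholly inside genes for ribosomal proteins, translation factors or TPT1, the translationally controlled tumour protein. They were chosen by name and position: a symbol of SNORA followed by a digit, on the same strand as a protein-coding gene whose symbol starts with RPL, RPS, EIF or EEF or is TPT1. Hosts EIF4A2, RPL5 and RPL12, with 6 H/ACA snoRNAs, were left out by the rule. No measured value entered the rule itself, but the snoRNAs were chosen with earlier results of these data known. The 23 snoRNAs share 17 host genes, of which 6 hold a pair and 11 hold 1. Ribosomal protein genes make up 12 of the hosts and hold 16 of the snoRNAs.

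H/ACA snoRNAs are small nuclear RNAs that fold into a pair of hairpins, joined by a short single-stranded H box and closed by an ACA box near the 3′ end. Each hairpin can hold a pocket that pairs with a target RNA and presents 1 uridine to dyskerin, the pseudouridine synthase of the complex. Dyskerin, GAR1, NHP2 and NOP10 form the protein core, and many of these snoRNAs direct pseudouridylation of ribosomal RNA. In vertebrates they are mostly cut out of introns of other genes, and genes of the translation machinery are among their best known hosts. Transcription of such a host therefore yields a component or helper of the ribosome and a guide RNA from the same precursor.

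The libraries came from U2OS, an established human osteosarcoma line, and were made by iCLIP, in which ultraviolet light fixes proteins to RNA in living cells and the end of each cDNA marks the fixed nucleotide. Nuclear fractions were precipitated with a mouse antibody against dyskerin or a rabbit antibody against GAR1. Mouse IgG served as the control in a dyskerin IgG set and a GAR1 IgG set, so the control for GAR1 was not of the same species. Each of the 4 groups had 2 replicates, and since the labels do not say whether these were separate cultures, p-values measure only the spread between these libraries, which may be technical. All groups were untreated cells of the same line.

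The libraries differed widely in the cDNAs at significant sites, which are not a measure of sequencing depth. These sites held 1693951 and 1875459 cDNAs in the dyskerin libraries, 585454 and 1976518 in GAR1, 146514 and 8183 in the dyskerin IgG set, and 295255 and 10701 in the IgG set of GAR1. All H/ACA snoRNAs together took 12.5% and 15.7% of them for dyskerin and 77.4% and 74.6% for GAR1. The dyskerin IgG libraries stood apart from each other, at 16.1% and 58.4%, while the GAR1 IgG set had 79.8% and 75.0%. The RNA that marks bone-type cells was seen mainly for dyskerin: COL1A1 had 977 and 1741 cDNAs there, against 0 and 245 for GAR1, and COL1A2 was at 0 in all libraries. Of 5 genes of other cell types, only KRT8 had a cDNA, a single one in the second dyskerin library.

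The letters of the H box were present in all 23 snoRNAs, which were 126 to 153 nt long with 32.8% to 60.4% GC. An ANANNA hexamer, the H box, lay in the middle 35% to 65% of the length in 23 of 23, against 167 of the 191 other H/ACA snoRNAs (87.4%) and 11 of 23 windows of the same length taken 200 nt upstream in the host (47.8%). Only the RNA strand was searched, and 12 of the snoRNAs had 1 such hexamer there. Where there were more, the one nearest the middle was used, at a start between nt 55 and nt 73. ACA exactly 3 nt from the 3′ end was found in 20 of 23, against 122 of the 191 others (63.9%) and 0 of the 23 upstream windows. Relative to the main transcript of each host, 22 lay in introns, with a median of 164 nt (48 to 1048) to the next exon. The exception, SNORA31B, overlapped the last exon of TPT1.

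Sequences are shown for snoRNAs whose levels or strongest crosslinked nucleotide carry the results below. They are read from GRCh38 on the strand of the RNA, and capitals mark the H box, the final ACA and, where it lies inside the RNA, the nucleotide that was strongest in most libraries. SNORA6 (chr3:39408389-39408539, plus strand) and SNORA62 (chr3:39411054-39411206, plus strand) come from introns of RPSA, and the capital 36 nt before the start of each H box is the strongest nucleotide.
SNORA6: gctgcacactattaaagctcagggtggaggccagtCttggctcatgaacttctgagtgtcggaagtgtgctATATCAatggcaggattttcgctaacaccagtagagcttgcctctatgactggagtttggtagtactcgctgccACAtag
SNORA62: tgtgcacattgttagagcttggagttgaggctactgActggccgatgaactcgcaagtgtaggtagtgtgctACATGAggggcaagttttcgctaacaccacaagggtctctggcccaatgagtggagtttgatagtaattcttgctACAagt

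SNORA70 (RPL10, chrX:154400281-154400415, plus strand), SNORA69 (RPL39, chrX:119787353-119787484, minus strand) and SNORA3B (RPL27A, chr11:8685439-8685569, plus strand) are shown because their strongest nucleotide lay near the 5′ end, at nt 15, nt 14 and nt 13.
SNORA70: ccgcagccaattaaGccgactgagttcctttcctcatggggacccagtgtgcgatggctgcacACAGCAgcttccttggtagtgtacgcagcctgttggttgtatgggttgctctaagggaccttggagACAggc
SNORA69: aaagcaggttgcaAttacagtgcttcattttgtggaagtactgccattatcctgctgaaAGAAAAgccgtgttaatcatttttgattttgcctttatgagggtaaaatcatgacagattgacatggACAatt
SNORA3B: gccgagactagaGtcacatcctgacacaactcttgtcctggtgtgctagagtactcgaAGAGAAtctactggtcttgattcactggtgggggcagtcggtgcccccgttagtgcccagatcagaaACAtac

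SNORA21 (RPL23, chr17:38852863-38852994, minus strand) and SNORA27 (RPL21, chr13:27255401-27255526, plus strand) had it after the H box, at nt 84 and nt 78. SNORA48 (EIF4A1, chr17:7574713-7574847, plus strand) had it 2 nt before its annotated 5′ end, so no single capital is seen in its first hairpin. For SNORA27, nt 78 led in only 4 of the 7 libraries with at least 50 cDNAs. Its strongest nucleotide was nt 16 in the second dyskerin library and nt 14 in the second GAR1 library.
SNORA21: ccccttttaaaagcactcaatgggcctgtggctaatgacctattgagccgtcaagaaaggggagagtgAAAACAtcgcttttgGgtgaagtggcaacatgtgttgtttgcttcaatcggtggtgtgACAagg
SNORA27: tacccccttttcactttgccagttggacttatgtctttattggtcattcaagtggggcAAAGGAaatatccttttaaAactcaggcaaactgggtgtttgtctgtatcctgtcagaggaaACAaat
SNORA48: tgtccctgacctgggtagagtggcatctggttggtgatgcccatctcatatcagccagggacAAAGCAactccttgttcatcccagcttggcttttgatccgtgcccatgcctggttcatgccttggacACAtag

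For SNORA67 (EIF4A1) and SNORA7A (RPL32), parts of which some host transcripts count as exon, 21 nt around the strongest nucleotide are shown, from nt 31 to nt 51 (chr17:7577985-7578005, plus strand) and from nt 4 to nt 24 (chr3:12840427-12840447, minus strand).
SNORA67: tcagtgcctcTcaggaaagta
SNORA7A: ctcctgggatCgcatctggag

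Both antibodies and both IgG sets recovered the 23 snoRNAs. Sites were present on all 23 in the dyskerin and GAR1 libraries and in the first GAR1 IgG library, and on 22 in the other IgG libraries, where SNORA21B was at 0. They held 2.99% and 3.81% of all peak cDNAs of dyskerin (3.40% ± 0.581, SD, n = 2) and 19.7% and 18.1% of those of GAR1 (18.9% ± 1.08). The dyskerin IgG set had 3.48% and 11.5%, and the GAR1 IgG set 19.3% and 15.2%. The dyskerin libraries overlapped the range of their IgG set, and so did the GAR1 libraries. Whether a larger share reflects more snoRNA in the precipitate, more crosslinking per snoRNA or fewer other RNAs cannot be told apart here.

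Within the H/ACA family the share was far more even. The 23 snoRNAs took 24.0% and 24.3% of all H/ACA cDNAs for dyskerin and 25.4% and 24.3% for GAR1, with Wilson 95% intervals of 23.8% to 24.1% and 25.3% to 25.5% for the first library of each. The dyskerin IgG set had 21.7% (21.2% to 22.2%) and 19.7% (18.6% to 20.9%), below both dyskerin libraries. The GAR1 IgG set had 24.2% (24.1% to 24.4%) and 20.3% (19.4% to 21.2%), the first of which did not differ from the second GAR1 library beyond its interval. The intervals cover counting error only. The 6 snoRNAs of EIF4A2, RPL5 and RPL12 took 17.53% ± 0.297 of H/ACA cDNAs for dyskerin and 17.1% ± 1.59 for GAR1, and 26.2% ± 0.170 of those of the dyskerin IgG set and 26.5% ± 6.29 of those of the GAR1 IgG set.

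**Figure D1:**
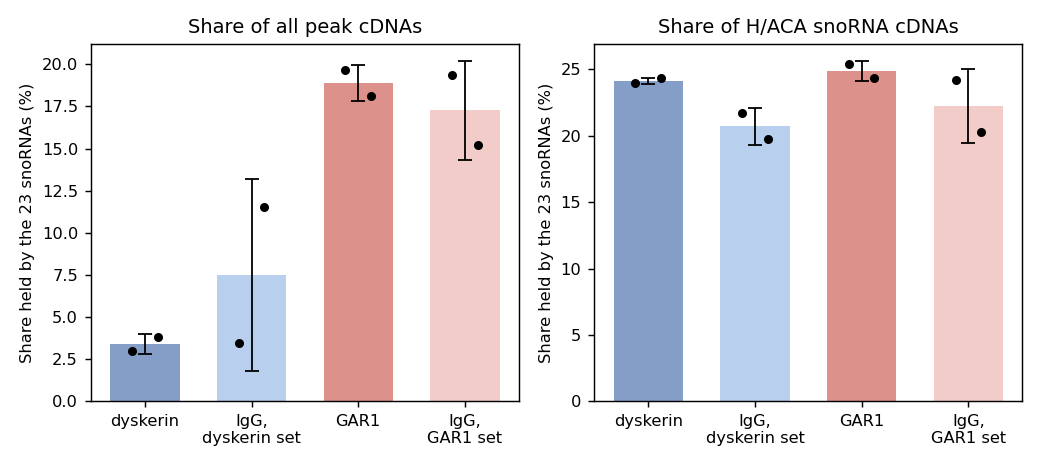
Share of all peak cDNAs (left, %) and of H/ACA snoRNA cDNAs (right, %) held by the 23 snoRNAs in each group. Bars are means, error bars SD and points the 2 libraries, which lie at 2.99% and 3.81% for dyskerin and at 19.7% and 18.1% for GAR1 on the left, and between 24.0% and 25.4% for both proteins on the right.

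Per length, the median snoRNA of this group was more heavily covered than the median of those in other protein-coding hosts. Levels are given as CPM (cDNAs per 1000000 peak cDNAs), here divided by the length of the annotated snoRNA. The median of the 23 was 10.1 and 12 CPM per nt for dyskerin and 58.4 and 56.4 for GAR1, with 10.1 and 36.9 in the dyskerin IgG set and 48.9 and 38.2 in the IgG set of GAR1. The 88 H/ACA snoRNAs in other protein-coding hosts had medians of 1.42 and 2.02 CPM per nt for dyskerin and 9.36 and 15.2 for GAR1, with 1.40 and 3.61 in the dyskerin IgG set and 9.76 and 4.48 in the IgG set of GAR1. Sites were present on 52 to 75 of these 88, depending on the library, and those without sites enter the medians as 0. The gap between the lists was present in the controls as well as with either antibody. The 6 snoRNAs of EIF4A2, RPL5 and RPL12 had higher medians than the 23, at 21.1 and 25.7 CPM per nt for dyskerin and 130 and 122 for GAR1. For the 97 without a protein-coding host the median was 0 in every library, with sites on 16 to 43 of them. None of these differences between lists was tested.

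By mean CPM over the 8 libraries, the most covered members came from RPSA, a protein of the small ribosomal subunit. SNORA6 had 3151 and 4141 CPM in the dyskerin libraries, 29160 and 20750 in GAR1, 3160 and 12950 in the dyskerin IgG set, and 27460 and 28320 in the IgG set of GAR1. SNORA62, a guide for large-subunit rRNA, had 2327 and 3230 CPM with dyskerin, 22630 and 15500 with GAR1, 2048 and 9654 in the dyskerin IgG set, and 21600 and 28220 in the IgG set of GAR1. The pair was first and second by the mean over the 8 libraries. By group means per length, SNORA67 and SNORA48 came between them with dyskerin, and SNORA70 in the dyskerin IgG set. For SNORA6 and SNORA62, the GAR1 libraries overlapped those of the GAR1 IgG set, and the dyskerin libraries overlapped those of the dyskerin IgG set.

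Guides of the large-subunit rRNA in other ribosomal protein genes followed. SNORA33, from RPS12, had 1319 and 2030 CPM with dyskerin, 11500 and 12520 with GAR1, 1222 and 7332 in the dyskerin IgG set, and 12150 and 5607 in the IgG set of GAR1. SNORA21, from RPL23, had 1909 and 1819 CPM with dyskerin, 11060 and 9060 with GAR1, 1973 and 6355 in the dyskerin IgG set, and 10260 and 6915 in the IgG set of GAR1. Both were higher in each GAR1 library than in each dyskerin library. SNORA68 had 1600 and 2178 CPM with dyskerin, 8305 and 7308 with GAR1, 2546 and 6966 in the dyskerin IgG set, and 10100 and 5140 in the IgG set of GAR1. SNORA7A, from RPL32, had 1242 and 1580 CPM with dyskerin, 9454 and 6985 with GAR1, 1706 and 3666 in the dyskerin IgG set, and 11240 and 6915 in the IgG set of GAR1. SNORA7A has a copy elsewhere in the genome that is 98.6% identical and held 385 and 499 cDNAs with dyskerin and 999 and 3485 with GAR1, so its level is uncertain by what reads of the pair share. For SNORA68 and SNORA7A the dyskerin libraries were below both libraries of their IgG set.

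SNORA64 and SNORA10, both large-subunit guides, share the host RPS2, a protein of the small subunit. SNORA64 had 1575 and 1782 CPM with dyskerin, 5994 and 8186 with GAR1, 3256 and 5744 in the dyskerin IgG set, and 6083 and 4766 in the IgG set of GAR1. SNORA10 had 842 and 930 CPM with dyskerin, 6021 and 6130 with GAR1, 648 and 2322 in the dyskerin IgG set, and 5592 and 5981 in the IgG set of GAR1. SNORA64 exceeded SNORA10 with dyskerin, with a ratio per length of 1.86 and 1.90, while GAR1 gave 0.988 and 1.33. The dyskerin IgG set gave 4.98 and 2.46 and the GAR1 IgG set 1.08 and 0.791. Antibody and experimental set cannot be told apart for this ratio. SNORA10 also has a copy that is 98.5% identical, with 0 and 11 cDNAs for dyskerin and 0 and 103 for GAR1.

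RPL27A holds SNORA3A and SNORA3B. SNORA3A had 1367 and 1594 CPM with dyskerin, 10450 and 9493 with GAR1, 1829 and 5133 in the dyskerin IgG set, and 11530 and 5887 in the IgG set of GAR1. SNORA3B had 1440 and 1589 CPM with dyskerin, 9408 and 8178 with GAR1, 1959 and 5010 in the dyskerin IgG set, and 10240 and 4299 in the IgG set of GAR1. The pair, 70.6% identical, was nearly level per length, at ratios of SNORA3A to SNORA3B of 0.957 and 1.01 with dyskerin and 1.12 and 1.17 with GAR1.

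EIF4A1, an RNA helicase that opens mRNA for the ribosome, holds SNORA48, a large-subunit guide, and SNORA67, a small-subunit guide. SNORA48 had 2316 and 2867 CPM with dyskerin, 9891 and 9153 with GAR1, 2095 and 5621 in the dyskerin IgG set, and 7807 and 5046 in the IgG set of GAR1. SNORA67 had 1941 and 3576 CPM with dyskerin, 6185 and 8207 with GAR1, 1747 and 8432 in the dyskerin IgG set, and 5436 and 6541 in the IgG set of GAR1. The order of the pair changed between the replicates of dyskerin and of each IgG set, but not of GAR1. The ratio per length of SNORA48 to SNORA67 was 1.21 and 0.814 with dyskerin and 1.62 and 1.13 with GAR1. It was 1.22 and 0.677 in the dyskerin IgG set, and 1.46 and 0.783 in the IgG set of GAR1. SNORA70, the small-subunit guide of RPL10, had 1688 and 2259 CPM with dyskerin, 5109 and 6289 with GAR1, 2710 and 8677 in the dyskerin IgG set, and 6120 and 9532 in the IgG set of GAR1. Both dyskerin libraries were below both libraries of the dyskerin IgG set for SNORA70, and overlapped them for SNORA48 and SNORA67.

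Lower in the order, SNORA41 of EEF1B2, an exchange factor for the elongation factor that carries tRNA, had 929 and 1095 CPM with dyskerin, 7707 and 7779 with GAR1, 1331 and 4644 in the dyskerin IgG set, and 8765 and 2617 in the IgG set of GAR1. SNORA69 of RPL39 had 639 and 712 CPM with dyskerin, 8247 and 7020 with GAR1, 901 and 2933 in the dyskerin IgG set, and 9727 and 3458 in the IgG set of GAR1. SNORA27, the large-subunit guide of RPL21, had 734 and 760 CPM with dyskerin, 9041 and 7106 with GAR1, 526 and 2200 in the dyskerin IgG set, and 5517 and 5327 in the IgG set of GAR1. These 3 showed wide gaps between the proteins: the GAR1 mean was 7.65, 11.3 and 10.8 times the dyskerin mean.

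TPT1 holds SNORA31, a large-subunit guide, and SNORA31B. SNORA31 had 642 and 838 CPM with dyskerin, 5476 and 7225 with GAR1, 594 and 2444 in the dyskerin IgG set, and 4369 and 2990 in the IgG set of GAR1. SNORA31B had 343 and 404 CPM with dyskerin, 4357 and 4564 with GAR1, 396 and 367 in the dyskerin IgG set, and 3539 and 1682 in the IgG set of GAR1. SNORA31 was the higher of the pair in all 8 libraries, by 1.27 to 6.87 times per length. SNORA21B, the second snoRNA of RPL23, was the lowest of the 23, with 15.4 and 21.9 CPM with dyskerin, 137 and 298 with GAR1, 0 and 0 in the dyskerin IgG set, and 295 and 0 in the IgG set of GAR1. Its partner SNORA21 was higher per length by 128 and 85.7 times with dyskerin and by 83.4 and 31.3 times with GAR1.

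The remaining 4 were SNORA19 of EIF3A, SNORA52 of RPLP2, SNORA28 of EIF5 and SNORA72 of RPL30. Their means lay between 641 and 1426 CPM with dyskerin and between 3263 and 7127 CPM with GAR1. The order of the 23 per length was close in both dyskerin libraries (Spearman's rho 0.969 across the snoRNAs, which are not independent replicates) and looser in the GAR1 libraries (0.879). Between neighbours in the order of mean CPM per nt, the values of the libraries were apart in 4 of 22 pairs for dyskerin and 6 of 22 for GAR1, so most neighbours did not differ beyond their spread. Outside the group, the genes whose levels followed its sum most closely over the 8 libraries were SNORA2C (Pearson's r 0.996 on log2(CPM + 1)), SNORA26, SNORA51, SNORA74A and SNORA13 (0.99 to 0.994), all snoRNAs of the same family.

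**Figure D2:**
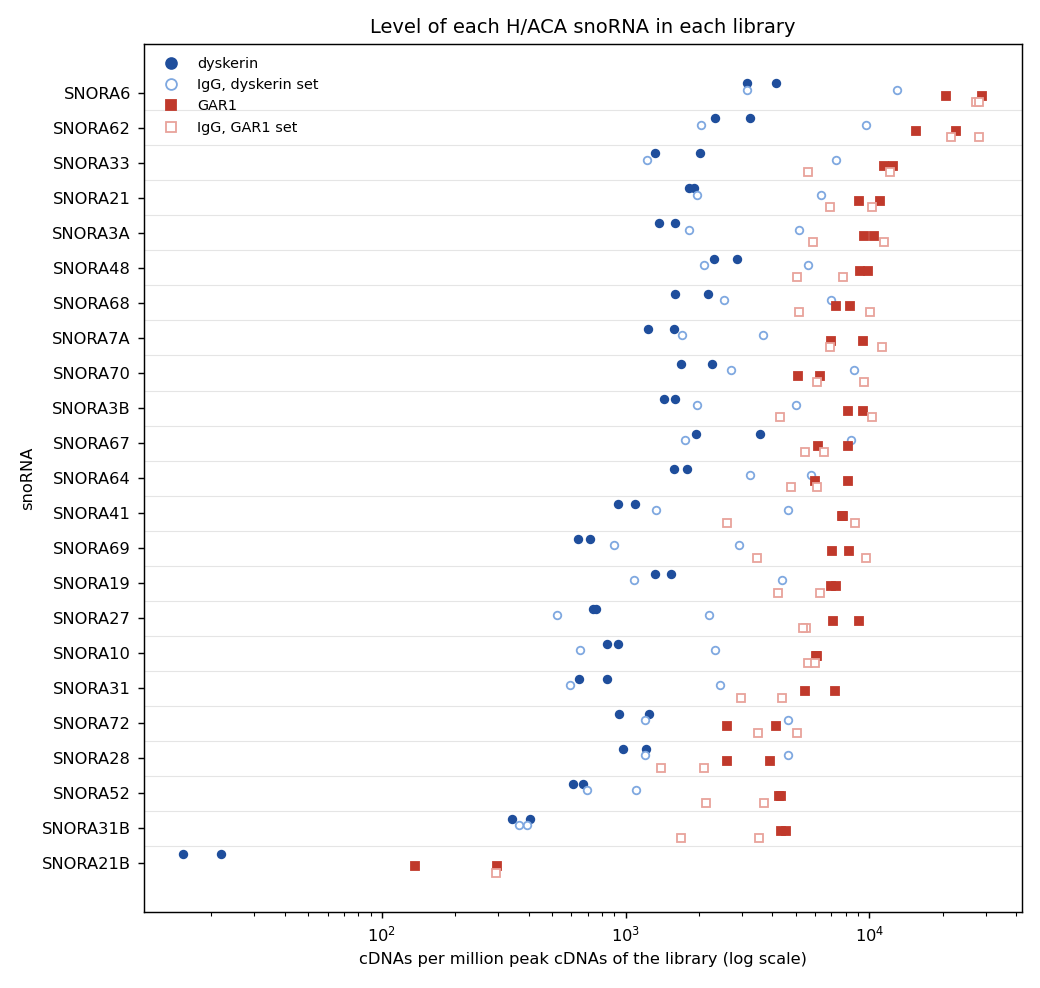
Level of each of the 23 snoRNAs (CPM, log axis) in each of the 8 libraries, ordered by mean level; values of 0 are described in the text and not drawn on a log axis. SNORA6 leads in every library but the first of the dyskerin IgG set, where SNORA64 leads, GAR1 libraries lie above dyskerin libraries for every snoRNA, and SNORA21B lies far below the rest.

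The comparison of the proteins asked whether dyskerin and GAR1 differ in how much of their signal each snoRNA takes. Relative to all peak cDNAs, 19 of the 23 were lower with dyskerin than with GAR1 and none was higher (edgeR, Benjamini-Hochberg adjusted p under 0.05). Over all 6404 genes tested, 2.73% were called lower and 90.6% higher. The median log2 difference of the 23 was -2.75 (from -3.58 to -1.38), beside 6.56 over all genes. H/ACA snoRNAs in other protein-coding hosts gave 34 of 68 lower with a median of -2.41, and those without such a host 21 of 33 with -2.77. The C/D snoRNAs of the same hosts, which carry other proteins and guide methylation, gave 0 of 5 with -1.11.

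The lowest adjusted p-values were those of SNORA6 (log2 -2.77 ± 0.71 SE, adjusted p = 0.000167) and SNORA62 (-2.78 ± 0.75, adjusted p = 0.000363). SNORA69 (-3.50 ± 1.05, adjusted p = 0.00114) and SNORA27 (-3.43 ± 1.06, adjusted p = 0.00163) had larger differences with larger errors. SNORA33, SNORA3A, SNORA41, SNORA31B, SNORA31 and SNORA7A came next, with differences from -3.58 to -2.54 and adjusted p up to 0.00826. The 4 without a call were SNORA70 (-1.53 ± 0.92, adjusted p = 0.102), SNORA72 (-1.63 ± 1.07, 0.135), SNORA67 (-1.38 ± 0.92, 0.139) and SNORA28 (-1.58 ± 1.13, 0.172). SNORA28, from the initiation factor gene EIF5, is a guide for small-subunit rRNA, as are SNORA67 and SNORA70. None of the 23 was called by DESeq2, and none when either dyskerin library was left out. DESeq2 turned the sign for 7 of the 23: SNORA67, SNORA70, SNORA28 and SNORA72, which had no call, and SNORA48, SNORA64 and SNORA68, which had one.

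Scaled instead to the cDNAs of all H/ACA snoRNAs, none of the 23 differed between dyskerin and GAR1 past the threshold, in either direction. The same scaling called 92.8% of all genes higher and 0.234% lower, with a median of 8.35 over all genes. The median of the 23 was then -0.31 (from -1.14 to 1.02, with 9 above 0), and SNORA27 stood at -0.98 ± 1.13 (adjusted p = 0.406). The family as a whole was lower with dyskerin, at 12.5% and 15.7% of peak cDNAs, against 77.4% and 74.6% with GAR1.

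Shares within the family were also set side by side, library by library, for the 23. With 2 libraries per protein, shares can readily lie apart without a difference, and the fit on this scale called none. In 7 of them both dyskerin libraries were above both GAR1 libraries, in 12 both GAR1 libraries were above, and 4 overlapped (SNORA7A, SNORA19, SNORA3B and SNORA21). Over the 130 H/ACA snoRNAs with a value, 26.9% had dyskerin above and 36.9% GAR1 above. The 7 of 23 with dyskerin above were near the share over the family. SNORA67 held 1.56% and 2.28% of H/ACA cDNAs with dyskerin, against 0.799% and 1.10% with GAR1. SNORA70 held 1.35% and 1.44% with dyskerin, against 0.660% and 0.843% with GAR1. SNORA28 held 0.782% and 0.772% with dyskerin, against 0.336% and 0.526% with GAR1. With SNORA72, SNORA48, SNORA68 and SNORA64, these made up the 7 with both dyskerin libraries above both GAR1 libraries. SNORA19 and SNORA21 also had a larger mean share for dyskerin, with libraries that overlapped.

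At the other end, SNORA31B held 0.275% and 0.258% of H/ACA cDNAs with dyskerin, against 0.563% and 0.612% with GAR1. SNORA69 held 0.513% and 0.455% with dyskerin, against 1.07% and 0.941% with GAR1. SNORA27 held 0.589% and 0.485% with dyskerin, against 1.17% and 0.952% with GAR1. For these the libraries of each protein lay close together and the proteins lay apart. As log2 ratios of the mean shares, the 23 ran from 1.02 for SNORA67 to -1.14 for SNORA31B.

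Most of these ratios had the same sign between the IgG sets. Of the 22 snoRNAs with a value in both, the ratio of dyskerin IgG set to GAR1 IgG set had the same sign as that of dyskerin to GAR1 in 20, with Pearson's r 0.82 and Spearman's rho 0.82 across the snoRNAs. The points share the library totals of their sets and are not independent, and so no p is given. SNORA67 had a log2 ratio of 1.02 between the antibodies and 0.70 between the IgG sets. SNORA28 had 0.85 and 1.78, SNORA69 -1.05 and -0.66, and SNORA31B -1.14 and -1.11. SNORA41 and SNORA3B were the pair with opposite signs, at -0.50 and 0.17 for SNORA41 and -0.09 and 0.16 for SNORA3B. Antibody and experimental set therefore cannot be told apart for these ratios. With the first library of each IgG set alone, r was 0.877 and rho 0.905.

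**Figure D3:**
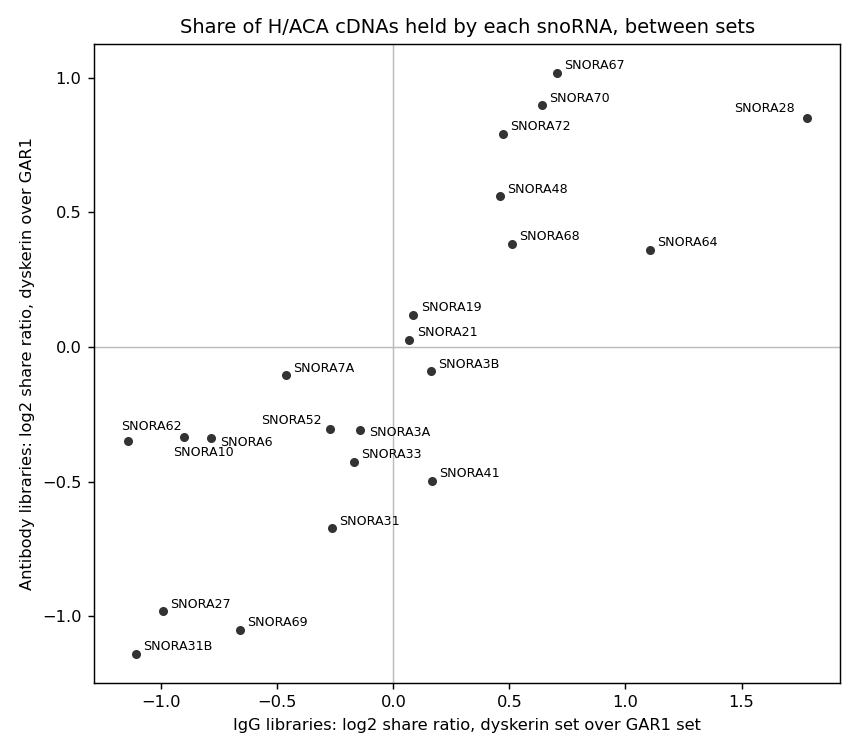
Each point is 1 of 22 snoRNAs, with the log2 ratio of its share of H/ACA cDNAs between the IgG sets (horizontal, dyskerin set over GAR1 set) and between the antibody libraries (vertical, dyskerin over GAR1). Points lie along the rising diagonal, from SNORA31B at -1.11 and -1.14 to SNORA28 at 1.78 and 0.85.

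When the IgG sets were compared on all peak cDNAs, a comparison added after the data were seen, 3 of the 23 were lower in the dyskerin IgG set, against 0.203% of all genes. SNORA62 differed by -2.11 ± 0.74 (adjusted p = 0.0359) and SNORA6 by -1.80 ± 0.69 (adjusted p = 0.0455). SNORA21B was at 0 in the dyskerin IgG set, and its mean of 147 CPM in the GAR1 IgG set was at least 7.6-fold above the 19.4 CPM that 3 counts over the dyskerin IgG set stand for (adjusted p = 0.0471). That mean rested on the first GAR1 IgG library, with 295 CPM against 0 in the second, so without it there is no bound, and no call for any of the 23. All 3 calls were lost with the H/ACA scaling and with TMM, and those of SNORA6 and SNORA62 with DESeq2, which gave SNORA21B no adjusted p.

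Against its own IgG set, dyskerin gave no call for any of the 23, with edgeR at an adjusted p under 0.05, with edgeR at an unadjusted p under 0.05 or with DESeq2. Over all genes, 0% were called higher and 0.109% lower, and 2068 genes were higher at an unadjusted p under 0.05. The median log2 difference of the 23 was -1.13, so these snoRNAs took a smaller part of the dyskerin libraries than of their controls in the fit, without a call. SNORA6 stood at -1.13 ± 0.68 (adjusted p = 0.224) and SNORA62 at -1.06 ± 0.72 (adjusted p = 0.293). These values rested on the second dyskerin IgG library: without it the estimates were 0.21 for SNORA6 and 0.44 for SNORA62. Scaled to H/ACA cDNAs the median was 0.24, with 18 of the 23 above 0, against 1 on all peak cDNAs and 11 with DESeq2. SNORA21B, at 18.6 CPM with dyskerin, lay under the 19.4 CPM that a count of 0 in the controls allows, so no difference was detectable at this depth.

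GAR1 against its IgG set also gave no call among the 23, with 0% of all genes called higher and 0.156% lower. None of the 23 passed at an unadjusted p under 0.05 or with DESeq2. With TMM, 22 were higher at an unadjusted p under 0.05 and none at an adjusted one. On all peak cDNAs their median log2 difference was 0.27 (from -0.45 to 0.89), with SNORA6 at -0.16 ± 0.67 and SNORA62 at -0.39 ± 0.71 (adjusted p = 1 for all). The GAR1 IgG libraries held the H/ACA family at 79.8% and 75.0% of their cDNAs, about as much as the GAR1 libraries. TMM scaling moved the median of the 23 to 4.34.

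The difference between the enrichments, dyskerin over its IgG minus GAR1 over its IgG, was called for none of the 23 either, by edgeR at an adjusted or unadjusted p under 0.05 or by DESeq2. Over all genes 2.90% were called higher and 0.0156% lower. The median of the 23 was -1.35 and their range -2.28 to 6.77, the upper end being SNORA21B, whose fitted value depends on the prior count because its dyskerin controls are at 0. The sign depended on the scaling: the median was -0.04 with 11 of 23 above 0 on H/ACA cDNAs and 0.042 with 14 of 22 above 0 in DESeq2. With TMM it was -4.57, and 22 of the 23 were lower at an unadjusted p under 0.05, without a call.

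Along the snoRNAs, cDNAs were concentrated in short stretches, and as averages these were largely the same for both proteins and in the controls. On average over the snoRNAs with at least 50 cDNAs in a library, each weighted alike, 24.1% ± 0.0707 of the cDNAs lay between nt 9 and nt 17 with dyskerin and 30.2% ± 2.40 with GAR1, and 26.6% ± 9.48 in the dyskerin IgG set, with 29.9% ± 6.01 in the IgG set of GAR1 (SD over libraries, n = 2 each). The stretch from 9 to 17 nt after the H box held 18.1% ± 2.90 with dyskerin and 18.0% ± 2.69 with GAR1, and 15.6% ± 1.41 and 15.9% ± 3.11 in their IgG sets. Each stretch makes up 6.47% of the nucleotides counted. The means covered 22 snoRNAs in each dyskerin library and 23 in each GAR1 library. They covered 22 and 7 in the dyskerin IgG set, and 23 and 14 in the IgG set of GAR1. SNORA21B entered for GAR1 but, at 26 and 41 cDNAs, not for dyskerin. It had 97.5% and 67.6% of its GAR1 cDNAs between nt 9 and nt 17, so the means of the proteins do not cover the same snoRNAs. Both stretches were chosen after the profile was seen. Single snoRNAs departed from these averages: in the first dyskerin library, nt 9 to nt 17 held 2.72% of the cDNAs of SNORA6 and 59.2% of those of SNORA7A. The strongest nucleotide there lay in the first stretch for 9 of 22 snoRNAs, in the second for 7 and elsewhere for 6. The last 10 nt, with the ACA box, held at most 0.0028% of cDNAs in any library. The authors dropped reads shorter than 10 nt in trimming, so cDNAs that start there could hardly be kept. The value therefore cannot tell whether the proteins touch the ACA box.

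From the H box onwards, the second part of the molecule held 34.7% and 30.2% of cDNAs with dyskerin and 33.8% and 28.3% with GAR1. The dyskerin IgG set had 18.3% and 22.1% (only 7 of the 23 had the minimum of 50 cDNAs in the second library), and the GAR1 IgG set 23.6% and 29.6%. Dyskerin was above both of its controls, while GAR1 overlapped its own. The 50 nt before each snoRNA, beyond the 5 nt counted with it, held cDNAs worth 0.15% to 0.742% of those on the snoRNA, and the 50 nt after it none except 15 cDNAs in the second dyskerin library.

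**Figure D4:**
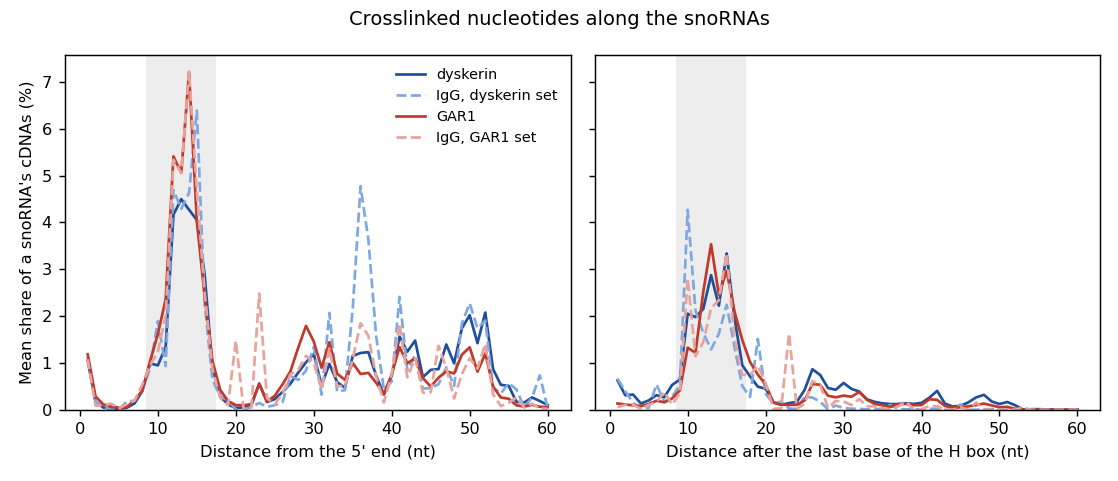
Mean profile of cDNAs along the snoRNAs by group, as the share of cDNAs (%) at each distance from the 5′ end and from the H box (nt). Only snoRNAs with at least 50 cDNAs in a library enter, so SNORA21B is in the GAR1 profile but not in that of dyskerin. In the second dyskerin IgG library 7 snoRNAs entered, and its profile from the 5′ end peaked at nt 36. All 4 groups rise in the stretch from 9 to 17 nt after the 5′ end and again from 9 to 17 nt after the H box.

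The single strongest nucleotide was stable for several snoRNAs. In SNORA6 it was nt 36 in all 8 libraries, with 762 and 1268 cDNAs in dyskerin, 1799 and 2308 in GAR1, 128 and 43 in the dyskerin IgG set, and 1595 and 85 in the IgG set of GAR1. SNORA67 had it at nt 41 and SNORA21 at nt 84 in all 8. In SNORA70 it was nt 15 in all 8, and hardly any cDNA lay past the start of the H box there, at 0.455% and 0.0472% with dyskerin and 0.568% and 0.402% with GAR1. Such one-sided coverage was not general, since SNORA10 had 68.2% and 57.7% past that point with dyskerin and 55.4% and 39.4% with GAR1, with its peak at nt 83.

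SNORA7A and SNORA69 had their strongest nucleotide at nt 14, and SNORA3B at nt 13, in every library with at least 50 cDNAs on the snoRNA (7, 6 and 6 libraries). SNORA62 had nt 37 in 6 of 8 libraries, with nt 95 in the first GAR1 library and nt 46 in the second GAR1 IgG library. Positions differed between the antibody libraries for SNORA48, where nt 43 led in both dyskerin libraries with 413 and 733 cDNAs and the nucleotide 2 nt before the 5′ end led in both GAR1 libraries with 756 and 1807. That upstream nucleotide also led in the first dyskerin IgG library and in both libraries of the GAR1 IgG set. In the second dyskerin IgG library, with 46 cDNAs on SNORA48 and so under the minimum, nt 43 led with 9. SNORA19 had nt 79 in both dyskerin libraries and nt 12 in both GAR1 libraries. SNORA31 had nt 81 in both GAR1 libraries, whereas the dyskerin libraries had nt 52 and 2 nt before the 5′ end. For SNORA19 and SNORA31 the first IgG libraries were split in the same way: SNORA19 had nt 79 in the dyskerin IgG set and nt 12 in the GAR1 IgG set, and SNORA31 had nt 52 and nt 81. Protein and experimental set cannot be told apart for SNORA48, SNORA19 and SNORA31.

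A count of cDNAs at 1 nucleotide cannot exceed the number of random barcodes in the primers, and high counts were unevenly spread over the libraries. Positions with 1000 or more cDNAs numbered 2 and 4 in dyskerin, 20 and 98 in GAR1, 0 and 0 in the dyskerin IgG set, and 6 and 0 in the IgG set of GAR1. The share of the top nucleotide of SNORA6 was 14.3% and 16.3% with dyskerin and 10.5% and 5.63% with GAR1. The part of such a limit in the levels was not tested.

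**Figure D5:**
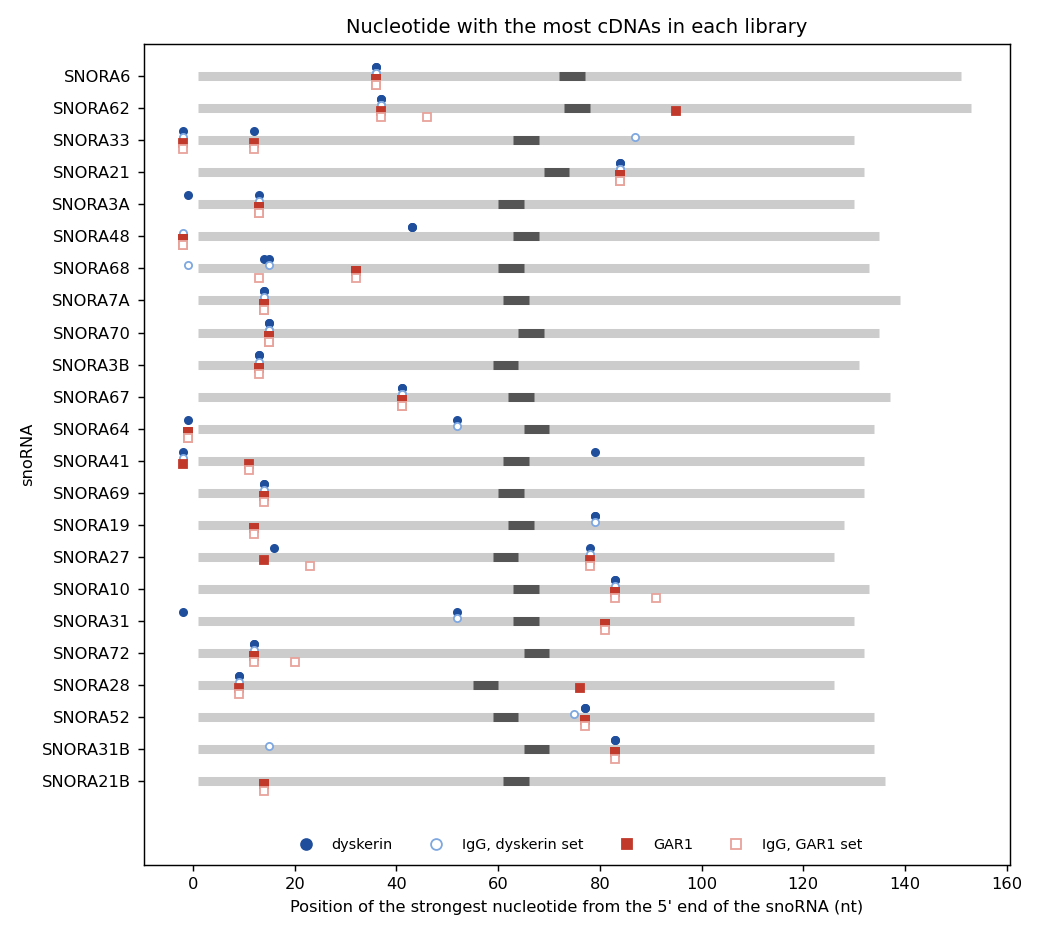
Grey bars show each snoRNA from its 5′ end (nt, horizontal), dark blocks its H box, and symbols the nucleotide with the most cDNAs in each library that has at least 50 cDNAs on that snoRNA. SNORA6, SNORA67, SNORA21 and SNORA70 have the same nucleotide in all 8 libraries, while SNORA48 and SNORA19 differ between dyskerin and GAR1, SNORA19 in the first libraries of the IgG sets too.

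The host mRNAs were seen with dyskerin and hardly with GAR1. Sites in exons of the 17 hosts summed to 1123 and 1909 CPM with dyskerin (1516 ± 556) and to 3.42 and 15.7 CPM with GAR1 (9.55 ± 8.67). The dyskerin IgG set had 1788 and 489 CPM and the GAR1 IgG set 3.39 and 0, so dyskerin overlapped its controls. Exon sites were present on 8 and 10 hosts with dyskerin and on 2 and 6 with GAR1. EIF3A, the largest subunit of a complex that brings the small subunit to mRNA, held most of the sum, with 1734 and 3211 exon cDNAs with dyskerin, 0 and 0 with GAR1, 252 and 4 in the dyskerin IgG set, and 0 and 0 in the IgG set of GAR1. RPL10 had 51 and 119 with dyskerin and 0 and 1 with GAR1, and RPS2 had 32 and 110 with dyskerin and 0 and 18 with GAR1.

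Of the hosts, 6 had enough counts outside the snoRNAs, introns included, to be tested. RPL10, RPL30, RPS2, EIF3A and TPT1 were called higher with dyskerin than with GAR1 and EIF5 was not called, beside the 90.6% of all genes called higher. Their median log2 difference was 4.81, a fitted value that depends on the prior count where GAR1 is at 0. For these 5 hosts the direction was opposite to that of their snoRNAs on the same scale, SNORA72 of RPL30 and SNORA70 of RPL10 being without a call. The genes for the H/ACA proteins and their assembly factors were likewise higher in 6 of 6 tested, with a median of 7.80.

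The names of the sites bear on this comparison. A site was called within the annotated gene it was named for, and 31.8% and 36.2% of the cDNAs on the 23 snoRNAs with dyskerin lay at sites named for the host alone, against 25.8% and 28.4% with GAR1, 37.4% and 56.2% in the dyskerin IgG set, and 27.7% and 33.1% in the IgG set of GAR1. Counting only sites that carried the snoRNA's own name, the 23 held 24.3% and 24.9% of H/ACA cDNAs with dyskerin and 26.4% and 24.8% with GAR1, against 19.9% and 16.1% in the dyskerin IgG set, and 24.7% and 20.6% in the IgG set of GAR1. On such sites SNORA67 had a log2 ratio of 1.44 between dyskerin and GAR1, SNORA70 1.23, SNORA69 -1.20 and SNORA31B -1.21. With dyskerin, exon sites were present on 3 and 6 of the 10 hosts named RPL or RPS with a number. They were present on 41 and 43 of 56 ribosomal protein genes that hold no annotated snoRNA of any class, small Cajal body RNAs included. With GAR1 they were present on 2 and 4 of the 10, beside 6 and 11 of the 56. The dyskerin IgG set had 2 and 0 of the 10, beside 12 and 1 of the 56, and the GAR1 IgG set 1 and 0, beside 2 and 1. These differences, and the part of per-gene site calling in it, were not tested.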

How the data were processed

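iCLIP libraries of dyskerin, GAR1 and 2 IgG sets in U2OS nuclei were analysed from the deposited lists of significant crosslink sites. By the study's methods and the processing notes of the submitters, the authors checked reads with FastQC 0.11.9, trimmed them with Cutadapt, whose version is not given in sources used here, aligned them to GRCh38 with STAR 2.7.0e and GENCODE 27 genes, kept up to 50 alignments per read, and called sites per library and gene in iCount (half-window 3 nt, 100 permutations, false discovery rate 0.05). The deposited values are counts of cDNAs per site that the authors did not normalize. Sites were kept only if they passed in a given library and gene, so totals are not sequencing depth, and reads of near-identical copies can be counted at each.

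Sites were assigned by strand to GENCODE 44, short RNAs with 5 nt upstream first, then exons, then introns. Genes with at least 10 counts in 2 libraries (6404) were tested in 1 fit of the 4 groups by the two-sided quasi-likelihood F test of edgeR 4.0.16 (R 4.3.3), with total peak cDNAs as library size, no TMM factors and Benjamini-Hochberg adjustment over all genes. SE is the log2 difference over the square root of F. Fits were tested on simulated data. Alternatives were TMM, library size from H/ACA cDNAs, DESeq2 1.42.0, other filters, margins and site minimums, the replicate number as a block, and leaving out each library. Sequences and boxes were read from GRCh38 with Python 3.11.15. The snoRNAs, lists and stretches were chosen with earlier results of these data known. Values in every library are printed for the 12 snoRNAs of highest mean CPM, up to 10 called per comparison by adjusted p, and those that share a host. Sequence is not shown for SNORA72, and the host of SNORA68 is not reported here. In pairing checks, samples of the same replicate number deviated together by correlations of 0.0886 (dyskerin and its IgG), -0.0081 (GAR1 and its IgG) and 0.101 (dyskerin and GAR1), so the numbers were treated as labels.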

Additional observations from a re-analysis of the deposited data

Results flagged for a closer look

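The RPL30 gene outside SNORA72 was the only host called in the difference between the enrichments, at a log2 value of 11.6 (adjusted p = 0.0248, edgeR). It had 20 and 19 exon cDNAs in the dyskerin libraries, 0 and 0 in GAR1, 0 and 0 in the dyskerin IgG set and 0 and 0 in the GAR1 IgG set, where the first library had 2 intronic cDNAs. With 3 groups at 0 in exons, the fitted value is set by the prior count of the fit and bounds nothing. SNORA72 itself, in the same gene, gave no call. Groups of 2 libraries were too small for a search for outlying samples, and the difference was singled out only because 1 of 6 hosts passed.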

How the results depend on the processing

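Of the 23 snoRNAs, 19 were called lower with dyskerin than with GAR1. The count was 0 with DESeq2, 0 with H/ACA scaling and 0 with H/ACA scaling and the replicate block, 1 (higher) with H/ACA scaling and no first dyskerin IgG library, 18 with the replicate block alone, 23 with TMM, 14 without a filter and 13 with sites of at least 3 cDNAs. Leaving out 1 library gave 0 to 23, with 0 without either dyskerin library, 9 and 10 without a GAR1 library and 23 without a dyskerin IgG library. For the IgG sets the count of 3 was 0 with DESeq2 (of 22 with an adjusted p), TMM, no filter, the replicate block, H/ACA scaling, and H/ACA scaling with the block, and 0 to 15 on leaving out 1 library, 15 being without the second dyskerin IgG library. The other 3 comparisons gave 0 calls throughout, 0 to 0 on leaving out 1 library; the block changed no call there.

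Directions between dyskerin and GAR1 turned with H/ACA scaling for 9 of the 23, SNORA67 (1.02), SNORA70 (0.896), SNORA28 (0.85), SNORA72 (0.792), SNORA19 (0.118), SNORA21 (0.0276), SNORA48 (0.559), SNORA64 (0.361) and SNORA68 (0.382), and with DESeq2 for 7, SNORA67 (0.685), SNORA70 (0.563), SNORA28 (0.529), SNORA72 (0.472), SNORA48 (0.212), SNORA64 (0.0339) and SNORA68 (0.0315). Dyskerin over IgG was above 0 for 1 of the 23, for 11 with DESeq2, among them SNORA6 (0.0459) and SNORA62 (0.162), and for 18 with H/ACA scaling (0.306 and 0.426). On leaving out 1 library it ran from -1.83 to 0.206 for SNORA6 and from -1.80 to 0.44 for SNORA62, positive without the second dyskerin IgG library. GAR1 over IgG was above 0 for 18, for 12 with DESeq2 and for 23 with TMM, among them SNORA6 (3.85) and SNORA62 (3.67), and on leaving out 1 library ran from -0.427 to 0.0644 for SNORA6. The cause was not tested.

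For dyskerin, the share of peak cDNAs came to 7.44% over sites with 3 or more cDNAs, 0.217% with each site counted once and 2.23% with own-name sites. For GAR1 it was 17% without the upstream margin, 6.32% with each site once and 13.8% with own-name sites, and for the GAR1 IgG set 12.2% with each site once and 12% with own-name sites. Leaving out a library gave 2.99% to 3.81% for dyskerin, 18.1% to 19.7% for GAR1, 3.48% to 11.5% for the dyskerin IgG set and 15.2% to 19.3% for the GAR1 IgG set. The part past the H box was 31.6% for the GAR1 IgG set without the margin, and on leaving out a library 30.2% to 34.7% for dyskerin, 28.3% to 33.8% for GAR1, 18.3% to 22.1% for the dyskerin IgG set and 23.6% to 29.6% for the GAR1 IgG set. Host exons gave 2070 CPM for dyskerin with sites of at least 3 cDNAs, and exons and introns together 443 CPM for GAR1 and 338 CPM for the GAR1 IgG set. Leaving out a library gave 1120 to 1910 CPM for dyskerin, 3.42 to 15.7 for GAR1, 489 to 1790 for the dyskerin IgG set and 0 to 3.39 for the GAR1 IgG set.

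Over all genes, calls between dyskerin and GAR1 numbered 5801 higher and 175 lower, 2404 and 281 with TMM, 3609 and 0 with DESeq2, and 6 and 1 or 18 and 1 without a dyskerin library. The median over all genes in that comparison was 6.56, 5.54 with TMM and 8.596 with DESeq2. Dyskerin against IgG had 0 higher, and 759 with a minimum of 50 counts. GAR1 against IgG had 0 higher, and 107 with DESeq2. The IgG libraries of 8183 and 10701 cDNAs limit every comparison with them.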
